A study of Mus musculus with 2 samples.

Results

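The 10 mouse genes described here are transcriptional outputs and feedback inhibitors of the growth factor to ERK pathway. They were chosen by name, as the rows of the deposited tables for Dusp1, Dusp4, Dusp5, Dusp6, Spry1, Spry2, Spry4, Spred1, Etv4 and Etv5, and all 10 were found among 20634 genes. Each identifier carried the same symbol in the GENCODE M21 annotation. The genes lie on 10 different chromosomes.

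Growth factors that bind receptor tyrosine kinases switch on Ras, which activates the kinases Raf, MEK and ERK in turn. ERK then induces genes whose products switch the pathway off again. Dusp genes encode dual-specificity phosphatases that remove the activating phosphates from ERK and related kinases. Sprouty and Spred proteins act further up, between the receptor and Raf. Etv4 and Etv5 encode ETS transcription factors of the PEA3 group, which carry fibroblast growth factor signals into the nucleus. In the mouse uterus, growth factor signalling between stroma and epithelium is part of the preparation for embryo implantation, and feedback genes of this kind are commonly read as a trace of ERK activity.

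The study holds 2 RNA-seq libraries of whole uterus, with the genotypes Mettl3 f/f and Mettl3 ed/ed given as labels, 1 library each. Mettl3 encodes the catalytic subunit of the enzyme that writes N6-methyladenosine (m6A) on RNA. Both libraries came from females mated at 6 to 8 weeks of age and killed on gestational day 4, with the plug day as day 1. The labels spell out neither allele, name no Cre driver and no target cell type, and give no number of animals, so how many uteri a library pools is unknown. The cell type is labelled as mixed, and fewer cells of a type cannot be told apart from less RNA per cell.

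Levels are FPKM, fragment numbers divided by transcript length and library size, so they can be compared between genes. From the spacing of low values the depth was put at about 18300000 fragments (f/f) and 17400000 fragments (ed/ed). Mettl3 itself stood at 10.6 and 10.2 FPKM (f/f first, here and wherever a pair of levels is given) and its partner Mettl14 at 11.9 and 12.2, so neither level set the libraries apart, and every direction below rests on the labels. Ratios set ed/ed over f/f on the log2 scale, after 1 FPKM was added to each value. Their median was -0.26 over the 12165 genes that reached 1 FPKM in at least 1 library, which are the genes tested below. With 1 library per genotype no test was possible, a difference of 2-fold stands in for one, and intervals cover counting error only.

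The ERK feedback genes did not move as a block between the libraries. Dusp6, a cytoplasmic phosphatase specific for ERK, was 2.45 times as high in ed/ed. Dusp5, a nuclear one, was instead 2.63 times as high in f/f. Etv5 and Spry1 were also higher in ed/ed, and Spry4 was 2.55 times as high in f/f. Spry2 and Spred1, which were abundant, stood within 1.13-fold. Of the 10 genes, 4 had a log2 ratio above 0 and 6 below, and their median was -0.12. Against the median of all genes tested (-0.26), 7 of the 10 lay above and 3 below. Under 3 of the 4 other scalings (by the median ratio, the upper quartile and reference genes), 6 were above 0 and 4 below, with medians of 0.08 to 0.16.

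**Figure D1:**
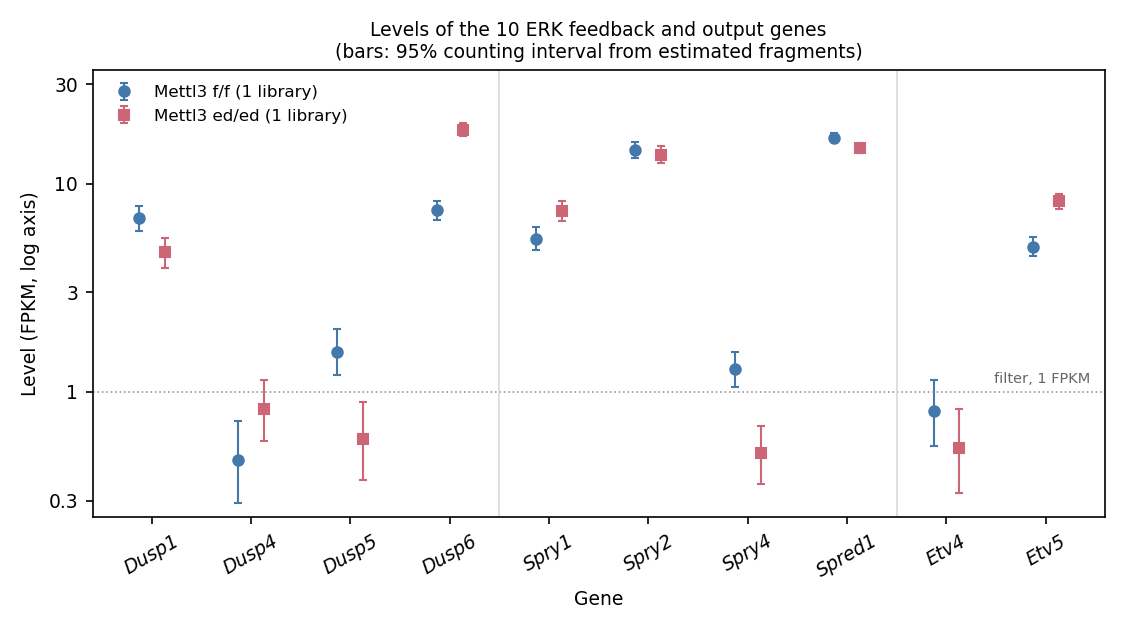
Level of each gene in FPKM on a log axis, with 1 point per library (circles f/f, squares ed/ed) and bars for the 95% counting interval from the estimated fragments. Dusp6 stands at 7.42 in f/f and 18.2 in ed/ed, Dusp5 and Spry4 lie below 1 FPKM in ed/ed only, and the bars overlap for Dusp4, Spry2 and Etv4.

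Of the 10 genes, 8 reached 1 FPKM in either library, and Dusp4 and Etv4 did not. Dusp5 and Spry4 passed through the f/f library alone, where they were higher. Of the 8, Dusp6 was at least 2-fold higher in ed/ed (2.68% of all genes tested were) and 0 were at least 2-fold lower (6.22% were). The addition of 1 FPKM pulls low genes toward 0, and this decided the calls of Dusp5 and Spry4. With 0.1 FPKM added, both were more than 2-fold lower in ed/ed (11.0% of all genes were), at log2 ratios of -1.26 and -1.20. With 5 FPKM added, 0 of the 8 were 2-fold higher (0.921% of all genes were), and Dusp6 was at 0.90.

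Among the phosphatases, Dusp6 (ENSMUSG00000019960, GRCm38 chromosome 10, 99263231 to 99267489) showed the largest difference on the log2(FPKM + 1) scale. Its level was 7.42 FPKM in f/f and 18.2 FPKM in ed/ed, from about 345 and 803 fragments. Its log2 ratio was 1.19, above 98.2% of the genes tested. The ratio of the levels themselves, 2.45, had a 95% counting interval of 2.16 to 2.79. Dusp6 was the third most abundant of the 10 genes in f/f and the most abundant in ed/ed.

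Dusp5 (ENSMUSG00000034765, chromosome 19, 53529109 to 53542431) also acts on ERK, but in the nucleus. It stood at 1.56 FPKM in f/f and 0.594 FPKM in ed/ed, from about 63 and 23 fragments. The ratio of f/f to ed/ed was 2.63, with a counting interval of 1.59 to 4.39. An annotated antisense gene overlaps Dusp5, and its reads cannot be told apart from those of Dusp5, since whether strand was used is not stated.

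Dusp6 and Dusp5 therefore differed in opposite directions. The difference between their log2 ratios was 1.87 with 1 FPKM added and 2.68 with none. Dusp6 was 4.76 times as abundant as Dusp5 in f/f and 30.6 times in ed/ed. A ratio of the levels of 2 genes within a library does not depend on how the libraries are scaled, unlike the difference of 1.87.

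The stretches upstream of both start sites are shown for this contrast, with that of Dusp1, since Dusp5 and Dusp1 held all the motif matches found. Each is the 250 bases before the start site, 5′ to 3′ on the gene's strand, from the RefSeq promoter table for GRCm38.p6, which had entries for 7 of the 10 genes. Capitals mark matches to any of 4 motifs searched on both strands. These were CCGGAAGT (bound by ETS factors), TGANTCA (AP-1), TGACGTCA (the cAMP response element) and the CArG box, which binds serum response factor. All but the first of these read alike on both strands, and no matches overlapped.
Dusp5, chr19:53528895-53529144, plus strand: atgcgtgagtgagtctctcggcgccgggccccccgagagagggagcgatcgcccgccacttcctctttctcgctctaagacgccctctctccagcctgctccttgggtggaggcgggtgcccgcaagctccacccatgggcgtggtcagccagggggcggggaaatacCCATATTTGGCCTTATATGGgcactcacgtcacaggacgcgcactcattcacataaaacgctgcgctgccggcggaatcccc
Dusp6, chr10:99262981-99263230, plus strand: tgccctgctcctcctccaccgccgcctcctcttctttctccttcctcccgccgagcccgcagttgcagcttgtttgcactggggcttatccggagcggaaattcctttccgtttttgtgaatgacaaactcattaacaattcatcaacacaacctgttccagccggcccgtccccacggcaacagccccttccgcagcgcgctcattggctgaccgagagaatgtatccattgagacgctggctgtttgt
Dusp1, chr17:26508473-26508722, minus strand: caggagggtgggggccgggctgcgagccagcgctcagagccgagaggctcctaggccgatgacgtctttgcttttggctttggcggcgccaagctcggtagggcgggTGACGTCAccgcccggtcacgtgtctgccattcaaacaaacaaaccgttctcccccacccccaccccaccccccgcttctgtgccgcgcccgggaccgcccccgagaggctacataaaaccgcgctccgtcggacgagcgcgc

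Upstream of Dusp5 there were 2 CArG boxes back to back, CCATATTTGG and CCTTATATGG, which began 82 and 72 bases before the start site. A CArG box was present in 1.47% of all 32851 promoters in the table. Upstream of Dusp1 there was 1 TGACGTCA, 143 bases before the start site, a motif held by 1.55% of promoters. Upstream of Dusp6 these letters were not found, nor were they in the windows of Spry1, Spry2, Spred1 and Etv5. CCGGAAGT was present in 2.88% and TGANTCA in 6.75% of all promoters. A match is a description of the sequence, and binding was not measured.

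Dusp1 encodes a nuclear phosphatase induced within minutes by growth factors and stress, which acts on p38 and JNK as well as ERK. It stood at 6.82 FPKM in f/f and 4.67 FPKM in ed/ed (counting interval of the f/f to ed/ed ratio 1.18 to 1.82). Its log2 ratio of -0.47 was under the all-gene median and ranged from -0.39 to -0.22 with the 4 other scalings. In GENCODE M21, 1 long transcript of Dusp1 runs across Ergic1 on the other strand, which stood at 75.1 and 37.3 FPKM, so the Dusp1 values are uncertain.

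Dusp4, another nuclear and inducible phosphatase, was barely detected. It stood at 0.472 FPKM in f/f and 0.824 FPKM in ed/ed, from about 21 and 36 fragments. The counting interval of the ratio, 1.75, ran from 1.03 to 3.25, so at this depth its size is poorly known.

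Within the family, Dusp6 made up 45.6% of the summed FPKM of the 4 Dusp genes in f/f and 74.9% in ed/ed. Dusp1 made up 41.9% and 19.2%, and Dusp5 9.58% and 2.45%. The 3 nuclear phosphatases among the 4, Dusp1, Dusp4 and Dusp5, together stood at 8.86 FPKM in f/f and 6.08 FPKM in ed/ed. Dusp6 was thus 0.838 times their sum in f/f and 2.98 times in ed/ed. Dusp1, at 6.82 and 4.67 FPKM, made up most of that sum, so its uncertainty carries over to these ratios and shares. The 4 genes summed to 16.3 and 24.2 FPKM. Outside these 4, the phosphatase gene Dusp16 stood at 26.5 and 23.4 FPKM, above each of the 4 in both libraries. Dusp7 and Dusp2 stood at 7.47 and 6.68 FPKM and at 4.37 and 4.51 FPKM.

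**Figure D2:**
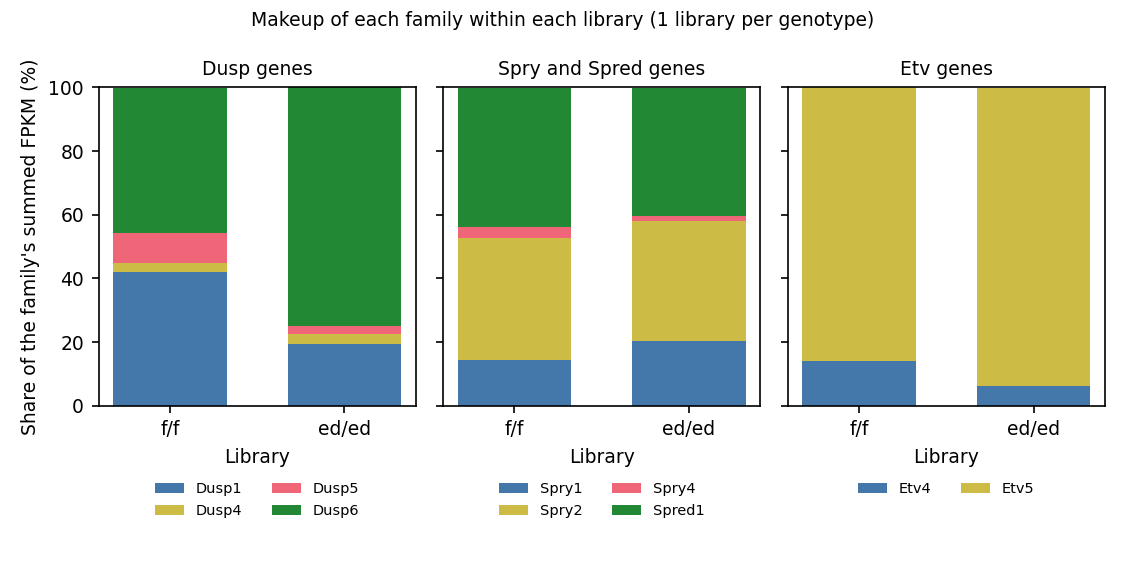
Share of each family's summed FPKM, in percent, held by each of its genes, with 1 stacked bar per library and 1 panel per family. Dusp6 makes up 45.6% of the Dusp genes in f/f and 74.9% in ed/ed, while Spry2 and Spred1 hold similar shares in both libraries. The Dusp shares carry the uncertainty of the Dusp1 values.

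Sprouty genes encode membrane-associated proteins that dampen the signal between receptor and Raf. Spry1 (ENSMUSG00000037211, chromosome 3, 37639947 to 37644598) stood at 5.43 FPKM in f/f and 7.42 FPKM in ed/ed. The ed/ed level was 1.37 times that of f/f (counting interval 1.15 to 1.61), and its log2 ratio of 0.39 lay above that of 88.6% of genes. An unclassified transcript is annotated on the opposite strand of Spry1.

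Spry4 (ENSMUSG00000024427, chromosome 18, 38586247 to 38601415) went the other way. It stood at 1.29 FPKM in f/f and 0.505 FPKM in ed/ed, from about 106 and 40 fragments. The ratio of f/f to ed/ed was 2.55, with a counting interval of 1.73 to 3.72. Spry1 was 4.22 times as abundant as Spry4 in f/f and 14.7 times in ed/ed. Their log2 ratios differed by 0.99 with 1 FPKM added and by 1.80 with none.

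Spry2 stood at 14.5 FPKM in f/f and 13.7 FPKM in ed/ed, and the counting interval of its ed/ed to f/f ratio, 0.830 to 1.08, held 1. Its log2 ratio was -0.07 as deposited and 0.01 to 0.21, thus positive, with the 4 other scalings. Spred1, which encodes a membrane-bound relative of Sprouty that recruits the Ras inhibitor neurofibromin, stood at 16.6 and 14.7 FPKM. The counting interval of its ratio, 0.888, was 0.828 to 0.952, and its log2 ratio of -0.16 turned positive under 3 of the 4 other scalings. The direction of these 2 genes therefore depended on the scale. Both were among the 3 most abundant of the 10 genes in both libraries.

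The summed level of the Sprouty and Spred genes was 37.8 and 36.4 FPKM. Spry1 made up 14.4% of it in f/f and 20.4% in ed/ed. Spry4 made up 3.40% and 1.39%. Spry2 held 38.3% and 37.8%.

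Of the ETS factors, Etv5 (ENSMUSG00000013089, chromosome 16, 22381309 to 22439719) stood at 4.98 FPKM in f/f and 8.20 FPKM in ed/ed. From about 339 and 530 fragments, the ratio was 1.65 (counting interval 1.43 to 1.89). Its log2 ratio of 0.62 lay above that of 93.6% of genes but within 2-fold. Etv4, its close relative, stood at 0.806 and 0.536 FPKM, and the counting interval of its f/f to ed/ed ratio, 0.843 to 2.80, held 1. Etv5 was 6.18 times as abundant as Etv4 in f/f and 15.3 times in ed/ed. Etv5 thus made up 86.1% and 93.9% of the pair.

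Ordered by level, the 10 genes in f/f ran Spred1, Spry2, Dusp6, Dusp1, Spry1, Etv5, Dusp5, Spry4, Etv4 and Dusp4. In ed/ed they ran Dusp6, Spred1, Spry2, Etv5, Spry1, Dusp1, Dusp4, Dusp5, Etv4 and Spry4. In f/f, neighbours in this order had overlapping counting intervals except at the steps from Spry2 to Dusp6 and from Etv5 to Dusp5. In ed/ed the steps without overlap were from Dusp6 (16.9 to 19.5 FPKM) to Spred1 (14.0 to 15.5 FPKM), from Spry2 to Etv5, from Spry1 to Dusp1 and from Dusp1 to Dusp4. The order of the 4 scarcest genes in ed/ed was therefore not resolved.

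**Figure D3:**
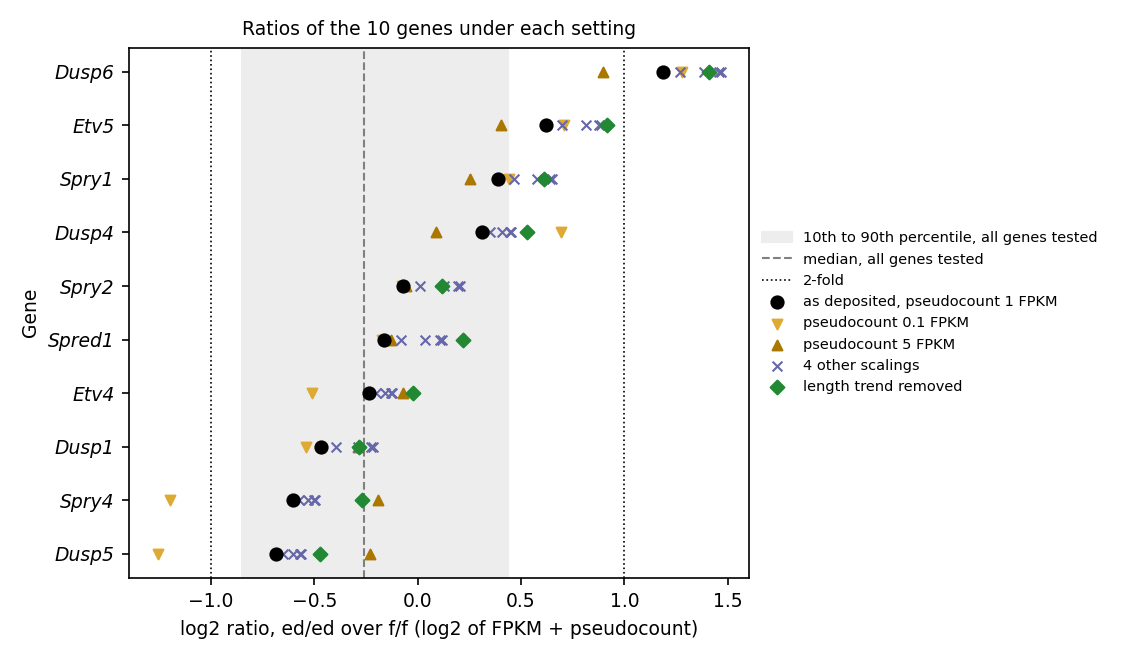
Log2 ratio of ed/ed over f/f for each gene, with the deposited values (black) beside other pseudocounts, scalings and a removal of the length trend. The grey band spans the 10th to 90th percentile of all genes tested (-0.85 to 0.44) and dotted lines mark 2-fold: Dusp6 lies between 0.90 and 1.47 in the settings drawn, while Dusp5 and Spry4 pass the lower line at a pseudocount of 0.1 FPKM.

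The rest of the pathway was read from 10 lists chosen from textbook knowledge, of which 149 of 153 genes were matched and 129 were expressed. Of these, 3 were 2-fold higher in ed/ed (2.33%, beside 2.68% of all genes) and 10 lower (7.75%, beside 6.22%), and their median log2 ratio was -0.24, close to the -0.26 of all genes. This balance depended on the scale, as it did for all genes. Under the 3 scalings named above, 8 were higher (6.20%, beside 4.14% to 4.89% of all genes). There 4 or 5 were lower (3.10% to 3.88%, beside 3.15% to 3.81%). Counts of lists below are with 1 FPKM added to the deposited values, and changes under some, not all, other settings are given. The lists follow the pathway from ligand to output.

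Of 17 expressed growth factor ligands, 2 were higher (2.68% of all genes were) and 4 lower (6.22% were), with a median of -0.53. Btc, called higher, passed the filter through ed/ed alone (0.308 and 1.98 FPKM). Igf2, called lower, passed through f/f alone (2.35 and 0.581 FPKM). With a filter of 5 FPKM, 1 of 9 ligands was higher and 3 were lower. Fgf1, a ligand of all fibroblast growth factor receptors, stood at 50.5 and 8.99 FPKM. Pdgfa, a ligand of the platelet-derived growth factor receptor Pdgfra, stood at 10.2 and 25.4 FPKM. Pdgfd stood at 7.09 and 2.03 FPKM, and Kitl, the ligand of Kit, at 11.7 and 3.99 FPKM. Under the 3 scalings 2 were higher and 3 lower, and with 5 FPKM added 0 and 1.

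Of 15 expressed receptors, 0 were higher and 3 lower, with a median of -0.15. The lower ones were Pdgfra at 28.0 and 9.30 FPKM, the vascular receptor Kdr at 11.6 and 4.72, and the epidermal growth factor receptor Egfr at 13.3 and 5.51. Kit stood at 2.94 and 6.71 FPKM, within 2-fold only after 1 FPKM was added. With 0.1 FPKM added, 2 receptors (Met and Kit) were higher and 4 lower. Under the 3 scalings and without the length trend, the same 2 were higher and Pdgfra alone was lower, as it was with 5 FPKM added. The most abundant fibroblast growth factor receptor, Fgfr2, named after its values were seen, stood at 82.4 and 82.8 FPKM.

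The core cascade from Ras to ERK had a median of -0.27 over 23 genes, with 0 higher and 1 lower. That gene was Braf, a Raf kinase, at 14.7 and 6.41 FPKM. It was within 2-fold under the 3 scalings, without the length trend and with 5 FPKM added. With 0.1 FPKM added, 2 genes were lower, Braf and Frs2. Frs2, the adaptor that links fibroblast growth factor receptors to Ras, stood at 11.2 and 5.18 FPKM. The scaffolds Gab1 and Ksr1 stood at 7.89 and 4.63 FPKM and at 3.82 and 2.25 FPKM. Of 7 kinases downstream of ERK, 0 passed 2-fold in either direction and the median was -0.42, with Rps6ka2 at 5.95 and 2.60 FPKM and Mknk2 at 63.8 and 33.2 FPKM. With 0.1 FPKM added or none, 1 of the 7, Rps6ka2, was lower.

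Other output genes were mixed, as the feedback genes were. Of 20 expressed immediate early and other ERK output genes, 1 was higher and 2 lower, and the median was 0.12. Ier3, an early response gene, stood at 13.2 and 31.5 FPKM. Phlda1 and the ephrin receptor gene Epha4 stood at 14.4 and 5.76 FPKM and at 9.0 and 3.69 FPKM. Jund, an AP-1 subunit, stood at 112 and 206 FPKM. Of the 20, 15 lay above the median of all genes. Under the 3 scalings 3 were higher (Ier3, Fos and Jund) and at most 1 lower, and with 5 FPKM added 0 passed 2-fold. Of 12 expressed ETS factors other than Etv4 and Etv5, 0 passed 2-fold in either direction (median -0.29), with Ets1 at 13.9 and 6.79 FPKM and the epithelial factor Elf3 at 78.4 and 142 FPKM. With 0.1 FPKM added or none, 2 were lower (Ets1 and Elk4), and under the 3 scalings and without the length trend 1 was higher (Elf3).

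The other inhibitors were within 2-fold on the log2(FPKM + 1) scale. This held for all 5 other expressed MAP kinase phosphatases (median 0.04), where Dusp8, a phosphatase of JNK and p38, stood at 0.935 and 1.77 FPKM and Dusp10 at 0.568 and 1.19 FPKM, more than 2-fold apart when no pseudocount was added. It held for all 8 expressed relatives and receptor inhibitors (median -0.24), where Spred2 stood at 10.4 and 7.67 FPKM and the receptor inhibitor Lrig1 at 9.13 and 11.8 FPKM. It also held for all 9 Ras inhibitors (median -0.36), where the neurofibromin gene Nf1 stood at 3.69 and 2.47 FPKM. None of 13 genes of the JNK and p38 branch passed 2-fold in either direction (median -0.35), and the p38 kinase gene Mapk14 stood at 21.3 and 12.1 FPKM.

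**Figure D4:**
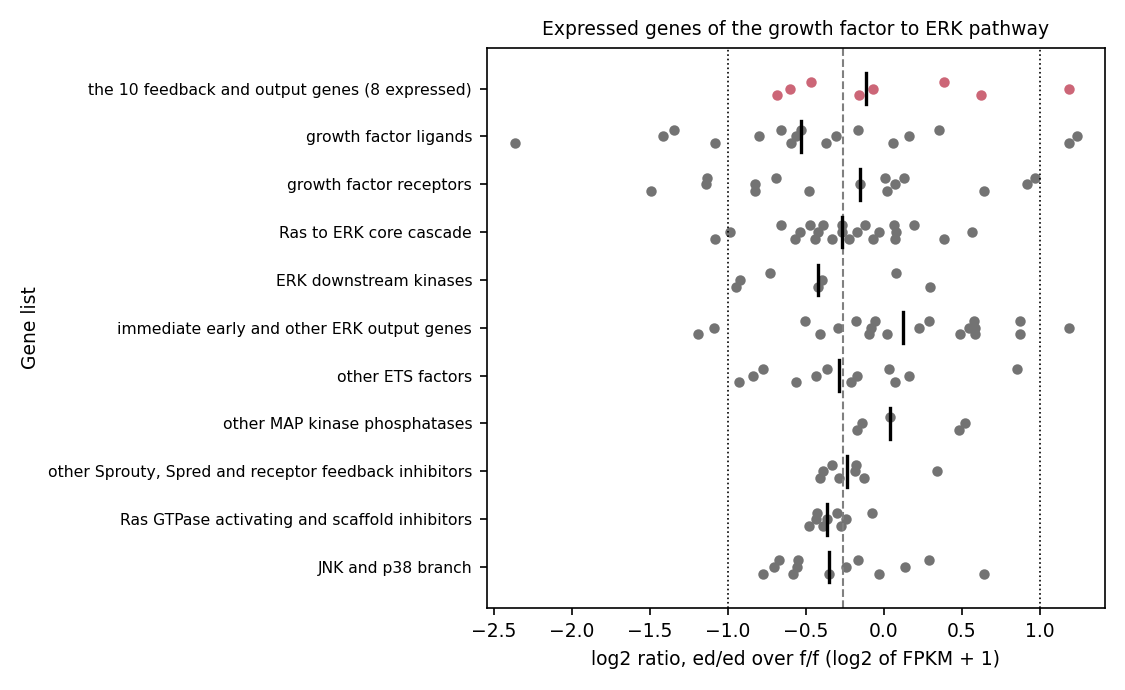
Log2 ratio of ed/ed over f/f for each expressed gene (points) of the feedback genes and of 10 pathway lists, with the median of each list as a black bar. The dashed line is the median of all genes tested (-0.26) and dotted lines mark 2-fold, which Dusp6 alone passes among the 8 expressed feedback genes.

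Markers of the cell types in the uterus differed between the libraries alongside these genes. Pdgfra (stroma), Kdr and Flt1 (endothelium) and Elf3 (epithelium) are also in the pathway lists above, so they are counted in both. Of all genes tested, 6.22% were 2-fold lower in ed/ed and 2.68% were 2-fold higher. Marker counts are given on the deposited scale only, and under the other scalings fewer of all genes were 2-fold lower. All 12 stromal markers lay below the median of all genes, 5 were 2-fold lower, and their summed level was 1454 and 724 FPKM. All 12 endothelial markers lay below it as well, 8 were 2-fold lower, and they summed to 349 and 168 FPKM. All 10 smooth muscle markers lay above it, 1 was 2-fold higher, and they summed to 691 and 1116 FPKM. Of 15 epithelial markers, 0 were 2-fold higher and 1 was lower, with sums of 3018 and 3097 FPKM.

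Of 4 expressed gland markers 3 (Foxa2, Sox9 and Spink1) were 2-fold higher, beside 2.68% of all genes. Foxa2 and Sox9 passed the filter through the ed/ed library alone, where they were higher, and Spink1 passed it in both. The 7 listed genes summed to 19.6 and 49.2 FPKM, with the gland proteases Prss28 and Prss29 listed at 0 in both libraries. Of 11 expressed macrophage markers, 2 were higher and 1 lower (sums 305 and 399 FPKM). The B cell markers Cd79a and Ms4a1 and all 4 fat cell markers were listed at 0 in both libraries. Of 6 embryo markers, Nanog, Pou5f1 and Cdx2 were listed at 0 in both, whereas Elf5, Tfap2c and Eomes were detected in both, at 0.854 to 4.74 FPKM. Whether these differences in markers play a part in the ratios of the feedback genes was not tested.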

How the data were processed

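Whole uterus RNA (TRIzol) was made into TruSeq libraries, per the labels' protocols. The deposited values were taken as FPKM, 1 per gene and library, for which the submitters' processing notes name HISAT2 2.2.1 and Cufflinks 2.2.1 as the authors' tools. The header names no unit, so FPKM is an inference from Cufflinks and from the values. The builds mm9 and mm10 are named without a role. Annotation, filters and strand setting were not given in the sources used here. Since FPKM depends on the other genes of a library, a few abundant genes or RNA quality can move all values.

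The members and lists were chosen with earlier results of these data known. Gene names followed a rule: all 10 members, Mettl3, Mettl14 and up to 4 genes of each pathway list by absolute ratio. Other names, such as Fgfr2, Dusp2, Ergic1, Elk4, Met and the single marker genes, were chosen after their values were seen. Coordinates and lengths came from GENCODE M21 (GRCm38), matched on identifier for 20557 genes, and locate genes, not reads.

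Depth was read from genes with 1 transcript longer than 1000 nt, where FPKM times effective length (250 nt shorter, an assumption) falls on multiples of 1 fragment. The spacing was 0.0547 in f/f and 0.0576 in ed/ed. Fragments of a gene assume its longest coding transcript, and 95% intervals are exact (Poisson for levels, Clopper-Pearson for ratios). Calls used 2-fold on log2(FPKM + 1) among genes that reached 1 FPKM in at least 1 library. Alternatives were pseudocounts of 0.1 and 5 FPKM, no filter, a filter at 5 FPKM, 4 scalings, a 1.5-fold rule, and removal of the length trend by lowess (fraction 0.3). The depth estimate, calls and length removal were tested on simulated data. These were made with the same 250 nt and with counting error only. They therefore check neither that assumption nor variation between libraries of the same genotype. Work was done in Python 3.11.15 with pandas 2.3.3, SciPy 1.17.1 and statsmodels 0.14.6.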

Additional observations from a re-analysis of the deposited data

How the results depend on the processing

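No paired analysis was possible because each genotype has 1 library, and for the same reason leaving out a library was not possible. Directions held under all settings for 8 of the 10 ERK feedback genes, the exceptions being Spry2 and Spred1. Of 80 alternative values of single genes, 59 lay within a band around the main value. The band was as wide as the gene's counting interval on the log2 scale, but was centred on the log2(FPKM + 1) ratio. Genes with few fragments have wide bands, so this count does not measure how stable a ratio is. Dusp5 lay within its band in every setting, though its ratio ranged from -1.39 to -0.23. Depth limits Dusp4, Dusp5, Spry4 and Etv4, which rest on 20 to 106 fragments a library.

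Under the median ratio, upper quartile and reference gene scalings and without the length trend, the log2 ratio of Dusp6 was 1.47, 1.39, 1.46 and 1.41, and that of Spry2 was 0.21, 0.13, 0.20 and 0.12. That of Spred1 was 0.12, 0.038, 0.11 and 0.22. Under the median ratio and reference gene scalings Spry1 was at 0.65 and 0.64 and Etv5 at 0.89 and 0.88, and Etv5 was at 0.91 without the length trend. With a pseudocount of 5 FPKM Dusp6 was at 0.90 and Etv5 at 0.40. With 0.1 FPKM and with none, the latter chosen after seeing the data, Spry4 was at -1.20 and -1.35, and Spry1 exceeded Spry4 by 1.64 and 1.80. With none, Dusp6 exceeded Dusp5 by 2.68.

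Of the 8 expressed feedback genes, 0 were called higher at a pseudocount of 5 FPKM (0.921% of all genes were) and 2 under a 1.5-fold rule (7.04%). Called lower were 2 at 0.1 FPKM (11.0%), 2 with none (11.5%) and 2 under the 1.5-fold rule (23.4%). The median of the feedback genes minus that of all genes was 0.14, but -0.12 with no filter and 0.42 with a filter of 5 FPKM, which kept fewer genes. The median of the feedback genes was -0.12 both at a filter of 1 FPKM and with none. That of all genes moved from -0.26 to 0 with no filter, where all 20634 genes were counted.

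Pathway genes called higher were 5 at 0.1 FPKM, 0 at 5 FPKM, 7 with no pseudocount, 12 under the 1.5-fold rule, and 8 under each of the 3 scalings named above and without the length trend. Those called lower were 16, 2, 16 and 27, then 4, 5 and 4 under the 3 scalings and 4 without the length trend. Of all genes, 489 were higher at 0.1 FPKM, 112 at 5 FPKM, 474 with no pseudocount and 856 under the 1.5-fold rule. Higher were then 600, 506 and 588 under the 3 scalings and 526 without the length trend. Lower were 1336 at 0.1 FPKM, 207 at 5 FPKM, 1388 with no pseudocount and 2850 under the 1.5-fold rule, then 387, 466 and 395 under the 3 scalings and 347 without the length trend. The 3 scalings and the removal of the length trend turn the balance of higher and lower genes. Scaling to the sum of f/f does not, with 387 higher and 608 lower of all genes and 4 and 10 of the pathway genes. The cause was not tested.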

Other observations

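Because Mettl3 acts on RNA, matches to GGACT, a well-known form of the m6A consensus, were counted in the longest coding transcript of each ERK feedback gene, a count chosen after the expression values were seen. All 10 transcripts held at least 1 match, as did 92.4% of 12111 expressed genes, whose median was 1.05 matches per kilobase. The 4 genes with a log2 ratio above 0 on the deposited scale lay above that median, with 2.86 per kilobase in Dusp6, 2.19 in Dusp4, 2.16 in Spry1 and 1.51 in Etv5. Of the 6 genes with a ratio below 0, 2 lay above it, with 3.35 in Spry2 and 2.01 in Dusp1. The other 4 lay below it, with 0.809 in Dusp5, 0.665 in Spred1, 0.421 in Spry4 and 0.418 in Etv4. This split depends on the scale. Spred1 had a positive ratio under 3 of the 4 other scalings, Spry2 under all 4, and both did without the length trend.

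Dusp6 held 8 matches, 6 of them in its coding part, whereas both matches of Dusp5 lay after the coding part. The match nearest to the stop codon is shown for these 2 genes and for Etv5, with 10 bases on each side, from GENCODE M21 transcripts, written 5′ to 3′ with the match in capitals. It began 19 bases before the first base of the stop codon in Dusp6, 197 bases after it in Dusp5 and 341 bases after it in Etv5.
Dusp6: tctaccaggtGGACTccctgcagtc
Dusp5: tgggctctcgGGACTgtatggaagg
Etv5: cgttgatcatGGACTactaaaatgc
Methylation of these sites was not measured, transcripts differ in length and base composition, and 10 genes are no basis for a test.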
